A study of Homo sapiens with 2 samples.

Results

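The genes described here are those of the MHC class II pathway: the 6 chains HLA-DRA, HLA-DRB1, HLA-DPA1, HLA-DPB1, HLA-DQA1 and HLA-DQB1, the 2 chains of the peptide editor HLA-DM (HLA-DMA and HLA-DMB), the invariant chain CD74 and the transactivator CIITA. They were chosen by name, as 10 of the 36601 genes counted, and each symbol was found once. They were followed in 2 single-cell libraries of colon organoids grown from 1383D6, an induced pluripotent stem cell line that stands for 1 human genotype. The CNT library came from organoids without added cytokines, and the 3CK library from organoids kept for 8 days with IL-1β, TNF-α and IFN-γ, in a series on a model of ulcerative colitis. Both cultures had passed through Activin A, FGF2, Matrigel embedding and a colonic medium with EGF, forskolin, PD98059, 5-Aza-2'-Deoxycytidine (an inhibitor of DNA methylation) and a compound given as A-83. Each group is 1 library, so no difference has a replicate check, no test was made, and all intervals are 95% intervals for counting error alone.

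MHC class II molecules are αβ dimers that show peptides from endosomes to CD4+ T cells. CD74 holds new dimers together and blocks their groove until endosomal proteases cut it away, after which HLA-DM swaps the remaining fragment for peptide. Transcription of these genes depends on CIITA, which does not bind DNA itself but docks onto RFX, CREB and NF-Y proteins at their promoters. Dendritic cells, macrophages and B cells make class II constitutively, whereas gut epithelium and fibroblasts are known to make it when IFN-γ, through JAK kinases and IRF1, turns CIITA on.

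The promoters of the genes on which the results turn are printed so that the element shared by class II promoters can be seen. They are RefSeq windows on GRCh38.p14, from 250 bases before to 50 bases after a gene's start, read 5′ to 3′ on the gene's own strand. The table of promoters held an entry for 8 of the 10 genes, and none for HLA-DRA or CIITA. Capitals mark CCAAT, the letters bound by NF-Y, on either strand (ATTGG where it lies on the other strand). The windows lie at chr5:150412861-150413160 (minus strand) for CD74, chr6:33075740-33076039 (plus strand) for HLA-DPB1, chr6:33073600-33073899 (minus strand) for HLA-DPA1 and chr6:32953048-32953347 (minus strand) for HLA-DMA.
CD74: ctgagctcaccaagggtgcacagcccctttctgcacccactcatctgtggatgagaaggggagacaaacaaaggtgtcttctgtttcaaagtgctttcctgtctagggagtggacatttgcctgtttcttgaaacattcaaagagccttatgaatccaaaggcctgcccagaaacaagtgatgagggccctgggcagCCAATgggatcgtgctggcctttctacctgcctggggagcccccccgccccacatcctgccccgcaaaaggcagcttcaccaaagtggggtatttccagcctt
HLA-DPB1: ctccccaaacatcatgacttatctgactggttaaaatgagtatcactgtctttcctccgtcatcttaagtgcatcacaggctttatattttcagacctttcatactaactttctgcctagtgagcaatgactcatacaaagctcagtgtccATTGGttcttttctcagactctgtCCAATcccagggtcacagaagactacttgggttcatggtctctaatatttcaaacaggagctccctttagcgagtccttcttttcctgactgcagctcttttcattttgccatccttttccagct
HLA-DPA1: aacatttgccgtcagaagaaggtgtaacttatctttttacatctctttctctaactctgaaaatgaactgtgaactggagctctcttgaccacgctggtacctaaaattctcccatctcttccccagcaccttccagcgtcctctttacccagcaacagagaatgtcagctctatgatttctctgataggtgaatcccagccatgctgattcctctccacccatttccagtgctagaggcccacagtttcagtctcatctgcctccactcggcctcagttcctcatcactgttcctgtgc
HLA-DMA: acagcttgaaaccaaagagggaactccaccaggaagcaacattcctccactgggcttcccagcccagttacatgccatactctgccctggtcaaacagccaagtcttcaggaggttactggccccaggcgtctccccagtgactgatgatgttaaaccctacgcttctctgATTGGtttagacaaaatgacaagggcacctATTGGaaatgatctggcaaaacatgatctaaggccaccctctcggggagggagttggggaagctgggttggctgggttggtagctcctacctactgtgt

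CD74 carried 1 CCAAT, which began at position -53 counted from the start. HLA-DPB1 carried 2, at -99 on the other strand and at -75. HLA-DMA carried 2, both on the other strand, at -79 and -49. Neither of the 2 entries for HLA-DPA1 held one. Of 35116 promoters of this length, 34.6% held CCAAT on at least 1 strand, so the letters are common. These are matches of letters in a window and not measured binding.

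Apart from CD74 (chromosome 5, 150401637 to 150412969) and CIITA (chromosome 16, 10866222 to 10943021), the genes lie in the MHC on chromosome 6 (GENCODE v44, GRCh38). HLA-DPA1 (33064569 to 33080775, minus strand) and HLA-DPB1 (33075990 to 33089696, plus strand) overlap by 4786 bases on opposite strands, and the strand setting of the authors' counting is not given in the sources used here. The HLA chains are also highly polymorphic and resemble their neighbours, so reads may be lost or split against 1 reference. UMIs come from the ends of transcripts and carry no length correction, so levels are compared within a gene and not between genes.

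After filtering, 2487 CNT and 1398 3CK barcodes were kept, with no barcode shared between the libraries. They held 101831571 and 91860414 UMIs (unique molecular identifiers, each standing for 1 captured transcript), and the median barcode had 28911 and 62746. Barcodes with at least 2 EPCAM UMIs per 10000 were called epithelial (1660 in CNT, 1016 in 3CK, with median depths of 37785 and 72198 UMIs). Barcodes with at least 5 collagen UMIs per 10000 (COL1A1, COL1A2 and COL3A1 together) and under 1 of EPCAM were called mesenchymal (574 and 124, with medians of 23450.5 and 65363), and 248 and 256 fell in no group. Only 37 and 9 met the enteroendocrine-like rule of 2 hormone UMIs per 10000 (CHGA, CHGB, MLN and GHRL), and 26 and 7 of these were also epithelial. The samples are titled colon epithelial cells. The 6 epithelial markers summed to 11127 and 21527 CPM (a sum's UMIs scaled to a common total) in epithelial barcodes, but to 8950 and 11643 CPM in mesenchymal ones too. There KRT18 alone was at 4930 and 6968 CPM and EPCAM at 20.5 and 17.2 CPM. Epithelial barcodes also held the liver and yolk sac transcript TTR at 64857 and 19491 CPM. Of the epithelial barcodes, 647 CNT and 286 3CK ones had under 10000 UMIs, and 302 and 91 entered the group on 1 EPCAM UMI.

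CD74, the invariant chain, was higher in the library with cytokines in every cell group. Over all kept barcodes its UMIs numbered 1613 (CNT) and 8488 (3CK), or 15.8 and 92.4 CPM, a 5.83-fold difference (5.53 to 6.16). In epithelial barcodes it stood at 14.3 CPM in CNT (1093 UMIs) and 83.8 CPM in 3CK (5878 UMIs), a log2 ratio of 2.55 (2.45 to 2.64). Mesenchymal barcodes started higher, at 23.0 CPM (451 UMIs), and reached 120.7 CPM (1100 UMIs), a log2 ratio of 2.39 (2.23 to 2.56). The 2 ratios have overlapping intervals. Barcodes of no group went from 11.5 to 119.6 CPM (68 and 1508 UMIs), and the enteroendocrine-like from 17.7 to 275.6 CPM on 12 and 67 UMIs in 37 and 9 barcodes.

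The other 9 genes differed in direction and size. Of the 10 genes, 5 reached 1 CPM in either library over all kept barcodes. Among these CD74 was past 2-fold higher and HLA-DQB1 past 2-fold lower, where 6.96% of all genes at that level were past 2-fold higher and 11.3% past 2-fold lower. The median log2 ratio of the 5 was 0.05, beside -0.05 over all 17523 genes. In epithelial barcodes 1 of 6 was past 2-fold higher and 2 lower (HLA-DQB1 and HLA-DMB), beside 8.48% and 12.1% of genes. In mesenchymal barcodes 1 of 4 was higher and none lower, beside 6.05% and 16.7%, and in enteroendocrine-like barcodes 1 of 2 was higher and none lower, beside 23% and 14.8%. Among barcodes in no group 3 of 7 were higher (HLA-DRA, HLA-DPA1 and CD74) and 2 lower (HLA-DQB1 and HLA-DMB), beside 9.17% and 20.5% of genes. Of these 3, only CD74 stayed past 2-fold higher without 1 3CK barcode, described below.

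**Figure D1:**
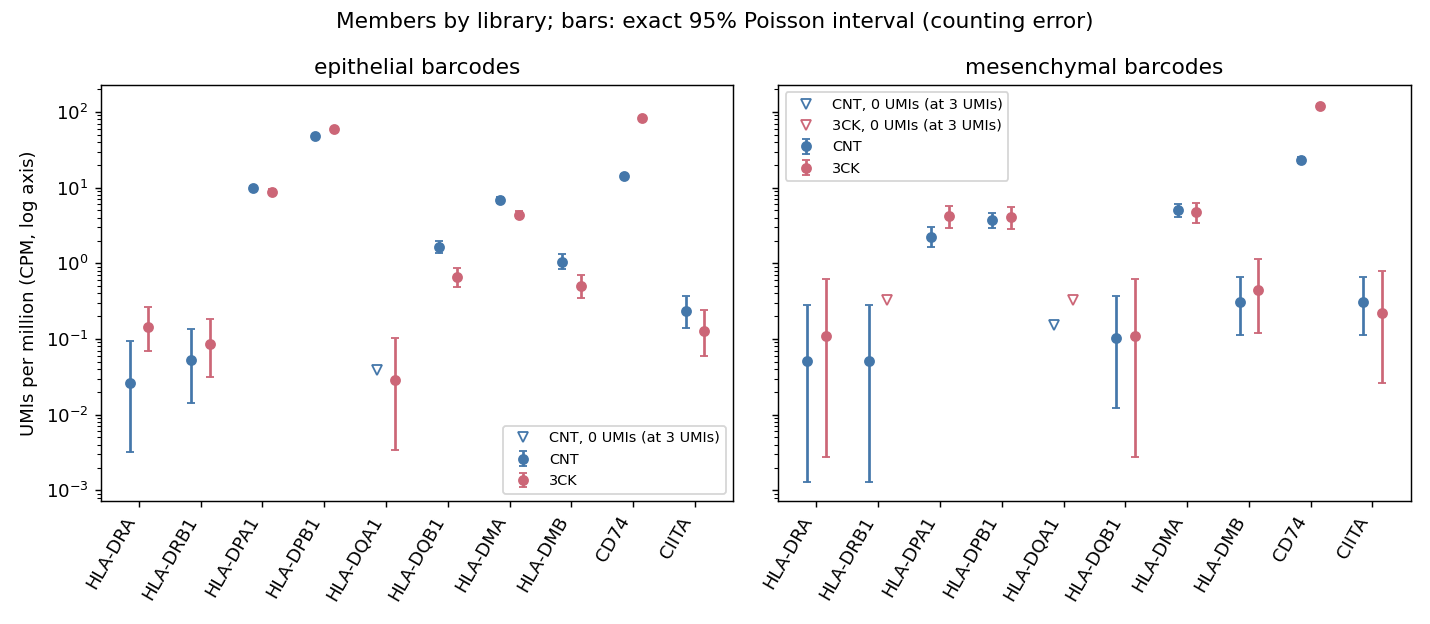
CPM (log axis) of the 10 genes in CNT and 3CK for epithelial (left) and mesenchymal (right) barcodes, with exact 95% Poisson intervals as bars and open triangles at the level of 3 UMIs where a library had 0. CD74 was higher in 3CK in both groups (14.3 against 83.8 CPM and 23.0 against 120.7 CPM), whereas the HLA-DPB1 points lie at 48.1 and 60.1 CPM in epithelial and 3.72 and 4.06 CPM in mesenchymal barcodes.

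A larger share of barcodes held CD74 in 3CK. At 5000 UMIs per barcode, which evens out the depth and leaves out 598 CNT and 240 3CK epithelial barcodes, 6.31% of epithelial barcodes in CNT (67 of 1062, exact binomial interval 4.92 to 7.94) and 25.3% in 3CK (196 of 776, 22.2 to 28.5) had a CD74 UMI. Without thinning the shares were 26.6% and 60.3%. In mesenchymal barcodes the thinned share went from 7.19% (23 of 320) to 37.4% (40 of 107), and the unthinned from 24.2% to 75.8%. Among barcodes with at least 10000 UMIs, the median epithelial barcode went from 0 to 50.2 CPM and the median mesenchymal barcode from 0 to 91.9 CPM. The highest single barcode of CD74 held 29 UMIs in CNT and 163 in 3CK. Its UMIs were spread unevenly, and the top 10% of barcodes held 72.9% of them in CNT and 51.7% in 3CK. A CD74 UMI was seen in 604 of 2487 CNT and 818 of 1398 3CK barcodes. Both measures also depend on the depth of the barcodes.

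Markers of immune cells were read beside CD74, because such cells make class II constitutively. The 12 macrophage and myeloid genes summed to 108.2 and 118.4 CPM in epithelial barcodes, and to 70.9 and 224.4 CPM in mesenchymal ones, where C1QB was at 0 in CNT and all 12 were seen in 3CK. In mesenchymal barcodes the leukocyte gene PTPRC had 11 UMIs in CNT and 33 in 3CK, AIF1 14 and 103, FCER1G 33 and 143, and TYROBP 532 and 801. These are counts from unequal totals of 19648485 mesenchymal UMIs in CNT and 9115881 in 3CK, so the differences per UMI are larger than the counts show. The 5 B cell genes summed to 2.02 and 2.68 CPM over all kept barcodes, and the 7 dendritic cell genes to 12.4 and 65.6 CPM. Most of the latter was LAMP3 (0.893 and 34.5 CPM in epithelial barcodes) and BATF3 (10.9 and 33.4 CPM), while CD1C had 0 UMIs in 3CK. With all barcodes holding a UMI of PTPRC, AIF1, CSF1R, C1QA or C1QB left out (26 CNT and 19 3CK mesenchymal, 422 and 158 epithelial), CD74 stood at 23.5 and 107.5 CPM in mesenchymal and at 13.7 and 86.0 CPM in epithelial barcodes. FCER1G and TYROBP were not part of this filter, so barcodes with only those stayed in. A single UMI was enough to leave a barcode out, among them 422 of 1660 epithelial ones in CNT. The filter therefore cannot tell leukocytes from other cells with a stray UMI.

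HLA-DPB1, the β chain of HLA-DP, was a gene of epithelial barcodes in both libraries and differed little between them. Epithelial barcodes held 48.1 CPM in CNT (3662 UMIs) and 60.1 CPM in 3CK (4211 UMIs), a 1.25-fold difference (1.20 to 1.31). Mesenchymal barcodes held 3.72 CPM (73 UMIs) and 4.06 CPM (37 UMIs), and here the interval of the log2 ratio ran from -0.48 to 0.72. Of all HLA-DPB1 UMIs, 95.9% in CNT and 93.1% in 3CK lay in epithelial barcodes, which held 74.8% and 76.3% of all UMIs. The mesenchymal share was 1.91% and 0.818%, from 19.3% and 9.92% of all UMIs.

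The epithelial difference in HLA-DPB1 depended on how single barcodes were weighted. Over all kept 3CK barcodes the highest held 202, 202 and 178 UMIs, and the 5 highest held 868 of 4524 (19.2%). In CNT the highest held 56 and the 5 highest 240 of 3817 (6.29%). With the 5 highest epithelial barcodes of each library left out, the epithelial log2 ratio was 0.092 (0.02 to 0.16) in place of 0.32 (0.26 to 0.39). With each barcode given equal weight it was 0.45. The median barcode with at least 10000 UMIs stood at 18.5 CPM (CNT) and 19.7 CPM (3CK). The thinned share of epithelial barcodes with a UMI was 16.5% (175 of 1062, 14.3 to 18.8) and 18.6% (144 of 776, 15.9 to 21.5), with overlapping intervals. In mesenchymal barcodes it was 0.938% (3 of 320) and 1.87% (2 of 107).

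Free RNA in droplets can put UMIs into cells that do not make a gene, so abundant epithelial transcripts serve as a scale. TTR in mesenchymal barcodes stood at 2.17% of its epithelial level in CNT (2.14 to 2.20) and at 1.22% in 3CK (1.17 to 1.27), and the apolipoprotein APOA2 at 2.18% and 0.935%. HLA-DPB1 stood at 7.73% (6.04 to 9.74) and 6.76% (4.75 to 9.33), above both. HLA-DPA1 stood at 22.7% and 47.4%, and CD74 at 160% and 143.9%. The part of free RNA in the mesenchymal levels was not tested.

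**Figure D2:**
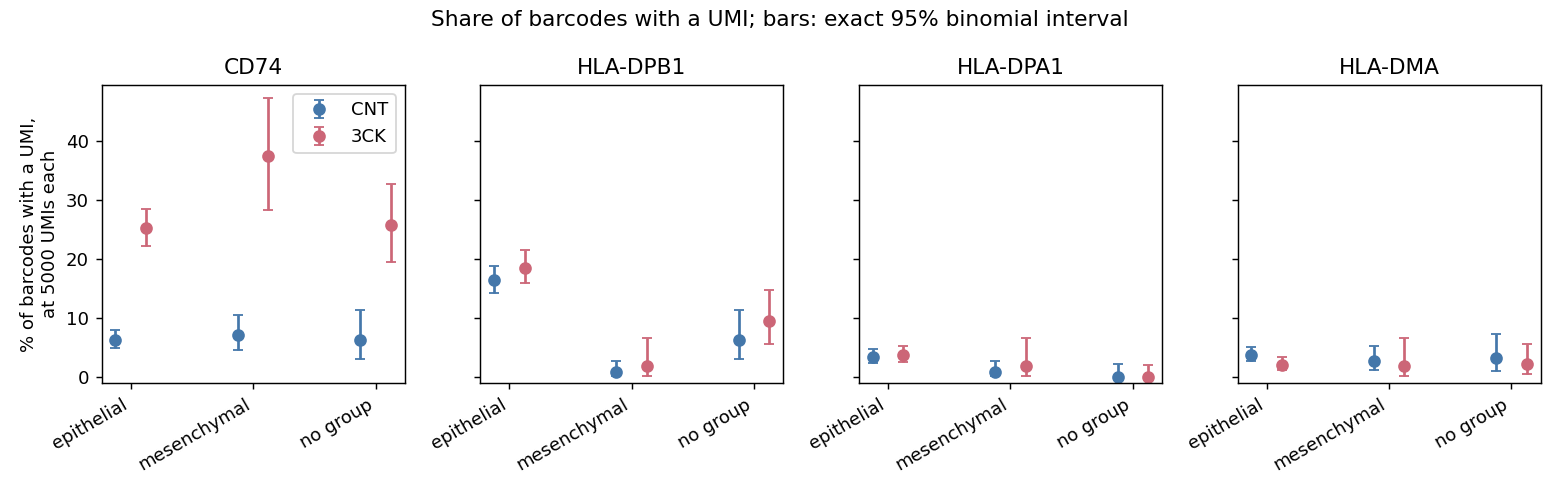
Percent of barcodes with a UMI after each was thinned to 5000 UMIs, for CD74, HLA-DPB1, HLA-DPA1 and HLA-DMA, by cell group and library, with exact 95% binomial intervals. CD74 was higher in 3CK in the 3 groups (25.3%, 37.4% and 25.7% against 6.31%, 7.19% and 6.33%), and HLA-DPB1 separated epithelial barcodes (16.5% and 18.6%) from mesenchymal ones (0.938% and 1.87%) rather than the libraries.

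Within the epithelium HLA-DPB1 followed TTR level in CNT. Epithelial barcodes with under 50 TTR UMIs per 10000 held 24.4 CPM of HLA-DPB1 in CNT (20.6 to 28.8), those with 50 to 500 held 46.9 CPM and those over 500 held 52.7 CPM (50.5 to 54.9). In 3CK the same classes held 46.7, 66.7 and 55.2 CPM, so the 3CK level was higher at low and middle TTR and overlapped CNT at high TTR (49.4 to 61.5). CD74 ran the other way in 3CK, with 95.1, 80.2 and 67.5 CPM from low to high TTR, but was level in CNT, with 14.9, 14.5 and 14.1 CPM. These are summed levels within 1 library each, with barcodes as the only units. They were not computed again without the barcodes highest in HLA-DPB1. Depth differed too, with a median of 2640 UMIs per barcode at middle TTR in CNT and 76331.5 in 3CK.

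**Figure D3:**
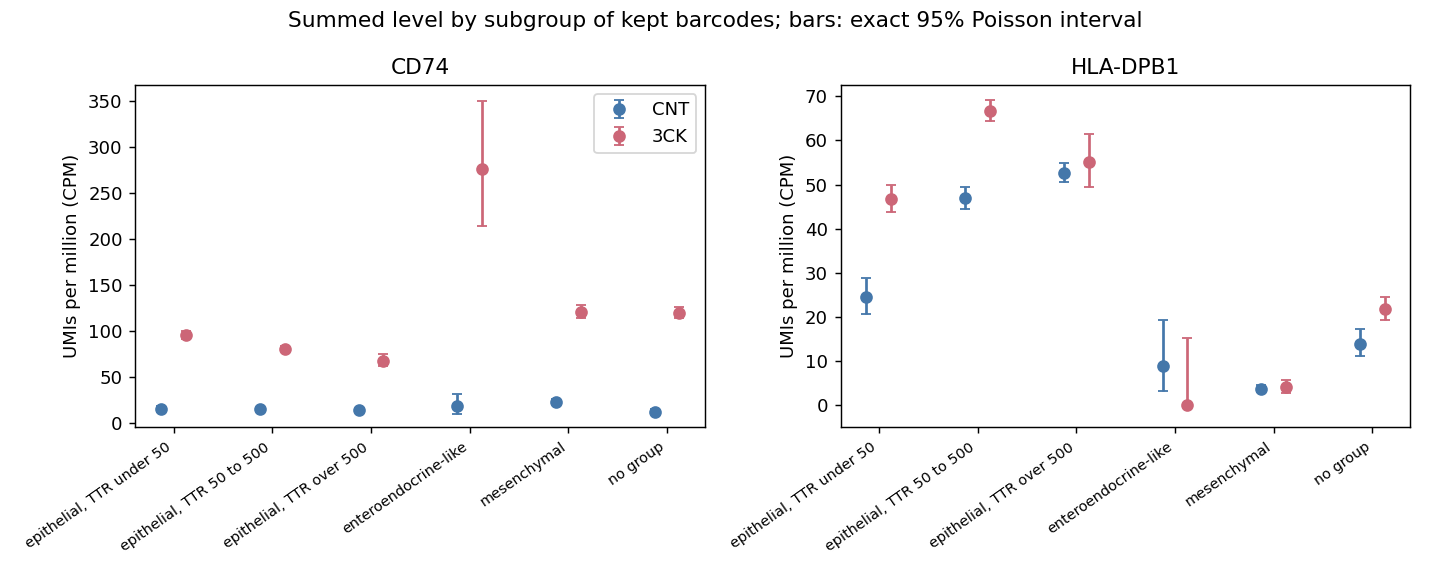
Summed level of CD74 (left) and HLA-DPB1 (right), in CPM, in 6 non-overlapping subgroups of kept barcodes, with exact 95% Poisson intervals. CD74 was higher in 3CK in each subgroup, between 67.5 and 275.6 CPM against 11.5 to 23.0 CPM in CNT, and HLA-DPB1 was between 24.4 and 66.7 CPM in the epithelial subgroups of both libraries and at most 4.06 CPM in the mesenchymal ones.

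HLA-DPA1, the α chain that pairs with HLA-DPB1, differed little between the libraries in epithelial barcodes. These held 92.4% of its UMIs in CNT and 81.1% in 3CK, beside 74.8% and 76.3% of all UMIs. Barcodes in no group held 13.9% of its UMIs in 3CK, beside 13.7% of all UMIs. HLA-DPA1 stood at 9.87 CPM in CNT (752 UMIs) and 8.80 CPM in 3CK (617 UMIs) in epithelial barcodes, a log2 ratio of -0.17 (-0.32 to -0.01). In mesenchymal barcodes it stood at 2.24 CPM (44 UMIs) and 4.17 CPM (38 UMIs), a log2 ratio of 0.90 (0.23 to 1.56). That mesenchymal value was 0.15 (-0.84 to 1.09) without the 5 highest barcodes of each library and was -0.35 with each barcode given equal weight.

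Deep barcodes with 1 HLA-DP chain more often held the other. Among deep epithelial barcodes (at least 10000 UMIs), 83.3% of those with HLA-DPA1 in CNT also had HLA-DPB1 (350 of 420), against 50.6% of those without it. In 3CK the shares were 88.6% (279 of 315) and 54.7%. At a fixed 5000 UMIs the same shares were 27.0% and 16.1% in CNT and 20.7% and 18.5% in 3CK, on only 37 and 29 barcodes with HLA-DPA1, of which 10 and 6 held both. Summed over deep epithelial barcodes, HLA-DPA1 stood at 15.2 CPM where HLA-DPB1 had at least 3 UMIs and 4.47 CPM where it had 0 in CNT, and at 13.4 and 2.62 CPM in 3CK. The barcodes with HLA-DPB1 were also deeper, with median totals of 87554 against 54168 UMIs in CNT and 110980 against 69550.5 in 3CK.

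The HLA-DM chains, which edit the peptide, were lower in 3CK epithelium. HLA-DMA went from 6.85 CPM (522 UMIs) to 4.41 CPM (309 UMIs) in epithelial barcodes, a log2 ratio of -0.64 (-0.84 to -0.43), and was at 5.04 and 4.72 CPM in mesenchymal ones (99 and 43 UMIs). With each barcode given equal weight its log2 ratios were -0.37 and -1.19, and the mesenchymal one, -0.10 from the sums, was -0.64 (-1.37 to 0.05) without the 5 highest barcodes. HLA-DMB went from 1.05 CPM (80 UMIs) to 0.499 CPM (35 UMIs) in epithelial barcodes, a log2 ratio of -1.07 (-1.69 to -0.48), or -2.08 with equal weights, and had only 6 and 4 UMIs in mesenchymal ones, where the log2 ratio of 0.52 was -0.71 without barcodes that held a leukocyte marker UMI. The thinned share of epithelial barcodes with HLA-DMA was 3.77% in CNT and 2.06% in 3CK. Among deep epithelial barcodes HLA-DMB was seen in 8.19% of those with HLA-DMA (28 of 342) and 4.47% of those without in CNT, and in 8.25% (17 of 206) and 2.10% in 3CK.

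HLA-DQ and HLA-DR were close to the limit of counting. HLA-DQB1, the HLA-DQ β chain, had 134 UMIs in CNT (1.32 CPM) and 52 in 3CK (0.566 CPM), a log2 ratio of -1.22 (-1.71 to -0.74). In CNT its UMIs lay in 64 barcodes, of which the 5 highest held 26.9%, and the ratio was -0.58 (-1.16 to -0.02) without the barcodes that held a leukocyte marker UMI. Its partner HLA-DQA1 had 0 UMIs in CNT, with an upper limit of 0.0362 CPM, and 5 in 3CK (0.0177 to 0.127 CPM), so the intervals overlap. The bound with CNT set to 3 UMIs was 1.85-fold, and it leaves out the counting error of the 5. HLA-DRB1 had 5 and 11 UMIs, and the interval of its log2 ratio ran from -0.36 to 3.16.

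HLA-DRA, the α chain of HLA-DR, was counted 3 times in CNT and 24 times in 3CK, an 8.87-fold difference with an interval from 2.69 to 46.0. Without barcodes that held a leukocyte marker UMI the log2 ratio of 3.15 was 1.71, with an interval from -0.21 to 4.19 that includes no difference. The 3 in CNT lay in 3 barcodes. The 24 in 3CK lay in 8 of 1398 barcodes, and 3 of these held 9, 7 and 3 of them. The barcode with 9 also had 41 UMIs of HLA-DPA1, 148 of CD74, 2 of CIITA and 2 of HLA-DRB1, from 201626 UMIs. It fell in no group, with 12 EPCAM UMIs and none of PTPRC, CD14, CD68, TYROBP, FCER1G, CD79A or CLEC9A. The barcode with 7 was epithelial and held 62 CD74 UMIs, and that with 3 was in no group, with 82 CD74 UMIs. These 2 held some myeloid transcripts, with 3 and 20 UMIs of FCER1G, 6 each of CD68, 1 of CD14 in the former and 2 of TYROBP in the latter. Both had 0 UMIs of PTPRC, CD79A and CLEC9A. CD68 was not particular to them. It was at 0, 11 and 14 UMIs in the epithelial 3CK barcodes with 1 HLA-DRA UMI, and at 5 and 7 in the epithelial CNT ones. A mesenchymal barcode with 1 HLA-DRA UMI held 15 of TYROBP, 13 of FCER1G, 5 of CD14 and 1 of PTPRC. As a set the 8 barcodes held CD74 at 498.8 CPM, against 89.2 CPM in the 987 other deep 3CK barcodes, and all 8 had CD74. These single barcodes were picked out after their values were seen.

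Barcodes in no group include the HLA-DRA barcode with 41 HLA-DPA1 UMIs, which sets part of their values. HLA-DPA1 there went from 3.06 CPM (18 UMIs) to 8.40 CPM (106 UMIs), a log2 ratio of 1.46 (0.73 to 2.27), and without that barcode to 5.24 CPM, a log2 ratio of 0.78 (0.01 to 1.62). HLA-DPB1 went from 13.9 CPM (82 UMIs) to 21.9 CPM (276 UMIs), a log2 ratio of 0.65 (0.29 to 1.03). HLA-DRA was at 0 UMIs in CNT and 13 in 3CK, of which 9 were that barcode's. The bound on its log2 ratio was 1.02, and -0.66 without that barcode. HLA-DRA was then at 0.322 CPM in 3CK, under the minimum of 1 CPM.

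CIITA itself did not differ detectably at this depth. It had 25 UMIs in CNT and 20 in 3CK over all kept barcodes (0.246 and 0.218 CPM, log2 ratio -0.17, -1.10 to 0.73), and 18 and 9 in epithelial ones (log2 ratio -0.88, -2.22 to 0.35). Barcodes of no group went the other way, with 1 and 9 UMIs (0.170 and 0.714 CPM, log2 ratio 2.07, -0.78 to 7.53). Without the barcode highest in HLA-DRA that ratio was 1.73 (-1.23 to 7.23). No CNT barcode held more than 1 CIITA UMI, and 1 in 3CK held 2. Its direction turned without the barcodes that held a leukocyte marker UMI, where the log2 ratios were 0.32 over all kept and 0.30 in epithelial barcodes. With each barcode given equal weight they were -1.86 over all kept and -3.00 in mesenchymal barcodes. The 19 3CK barcodes with CIITA held CD74 at 173.3 CPM (155.7 to 192.3) and the other 976 deep barcodes at 91.0 CPM (89.0 to 93.0). In CNT the values were 17.6 CPM (12.5 to 24.1) in 25 barcodes and 15.9 CPM in the rest. Of the 354 CD74 UMIs in the 3CK barcodes with CIITA, 148 came from the HLA-DRA barcode described above, without which the level was 111.9 CPM (97.1 to 128.3).

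The cells that carried CD74 and those that carried HLA-DPB1 overlapped only in part. Barcodes with at least 3 UMIs of CD74 numbered 186 in CNT and 597 in 3CK, of which 72.6% and 75.4% were epithelial, 23.7% and 12.6% mesenchymal and 3.76% and 12.1% in no group. Barcodes with at least 3 of HLA-DPB1 numbered 360 and 344, of which 95.8% and 90.1% were epithelial and 1.67% and 0.872% mesenchymal. No enteroendocrine-like barcode in 3CK held HLA-DPB1, while 4 of 9 held CD74. At a fixed 5000 UMIs, HLA-DPB1 was seen in 14.9% of epithelial barcodes with CD74 and 16.6% of those without in CNT, and in 22.4% (44 of 196) and 17.2% (100 of 580) in 3CK.

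**Figure D4:**
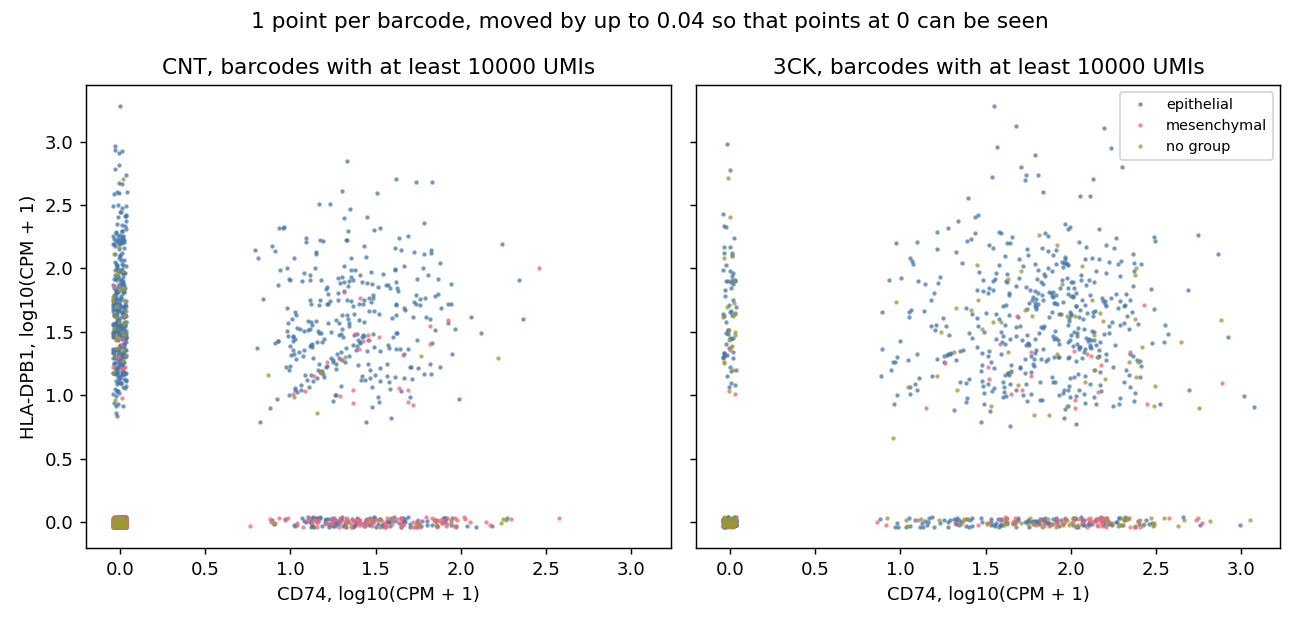
Each point is 1 barcode with at least 10000 UMIs, by its CD74 (x axis) and HLA-DPB1 (y axis) level as log10(CPM + 1), for CNT (left) and 3CK (right), coloured by cell group and shifted by up to 0.04 for display. Of epithelial barcodes, 304 of 1013 in CNT and 445 of 730 in 3CK held both genes, and mesenchymal points lie mostly along the CD74 axis (71 of 106 in 3CK held CD74 without HLA-DPB1).

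The genes that went with each differed in part. Deep epithelial 3CK barcodes with at least 3 CD74 UMIs (448) were compared with those at 0 (147), by the ratio of summed levels. The largest ratios were those of the interferon-induced chemokines CXCL10 (2280 against 301.3 CPM, 7.57-fold) and CXCL9 (93.4 against 15.1 CPM, 6.17-fold), and CXCL11 was at 349.1 against 88.9 CPM. CYGB, VCX3B, LGALS1, NPPB, FCER1G, GYPC and CA3 completed the 10, at 3.36-fold to 4.55-fold. In CNT the 135 carriers differed from 589 barcodes at 0 in other genes, led by STMN2 (5.59-fold) and CXCL14 (4.46-fold), and including the collagen-matrix genes DCN (3.47-fold) and CTHRC1 (3.67-fold). Around HLA-DPB1 the leading genes were MMP1, a collagenase (2.49-fold), and the lipocalin LCN15 (2.03-fold) in CNT, and CA3, a carbonic anhydrase (5.74-fold), and TFF3, a goblet cell trefoil peptide (2.52-fold), in 3CK. LCN15 was again among the 10 there, at 2.07-fold. So were the chemokines CXCL3 (2.51-fold), CCL3L1 (1.97-fold), CXCL9 (1.87-fold) and CXCL8 (1.85-fold). CA3 and CXCL9 were thus among the 10 around both genes in 3CK. Barcodes at 0 were shallower and richer in the nuclear RNA MALAT1. In 3CK the carriers of CD74 had a median of 110339 UMIs and MALAT1 at 3197 CPM, and barcodes at 0 had 51115 UMIs and 23852 CPM. Without barcodes above 100 MALAT1 UMIs per 10000, CXCL10 was at 6.52-fold and CXCL9 at 5.58-fold, but VCX3B, NPPB and GYPC were no longer among the 10. MMP1 around HLA-DPB1 in CNT was then at 1.85-fold, below LCN15 at 1.92-fold. In 3CK LCN15 was then no longer among the 10 around HLA-DPB1. CA3, CXCL9, CYGB and A2M were then among the 10 around both genes in 3CK.

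Across subgroups the likeness was of another kind. Over 11 subgroups of at least 20 barcodes in the 2 libraries, the genes whose log2(CPM + 1) was most like that of CD74 by Pearson correlation were PSME2, PSMB10, IRF1, IFI35 and CTSS, each at r = 0.98. PSME2 and PSMB10 belong to the proteasome that feeds class I molecules. CTSS ran from 2.15 to 3.82 CPM over CNT subgroups and from 149.3 to 261.7 CPM over those of 3CK. For HLA-DPB1 the 5 were LINC01559, AHSG, LIN28A, FBXO2 and RETREG1, at r between 0.95 and 0.97, and AHSG, a liver-secreted glycoprotein, ran from 2.90 to 92.5 CPM in CNT and 1.21 to 54.8 CPM in 3CK. The points share 2 libraries and their depth, so the first set largely follows the library and the second the cell group.

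The rest of the pathway was read from lists of known members. Of 6 genes that carry the IFN-γ signal to CIITA, 5 were past 2-fold higher over all kept barcodes, beside 6.96% of all genes (median log2 ratio 1.48). IRF1, the transcription factor that acts on the CIITA promoter, went from 23.3 to 375.9 CPM, a 16.1-fold difference (15.5 to 16.8). The kinase JAK2 went from 17.2 to 62.1 CPM and the receptor chain IFNGR1 from 58.9 to 208.5 CPM. In mesenchymal barcodes only IRF1 of the 6 was past 2-fold, from 49.0 to 412.6 CPM, beside 6.05% of genes. JAK2 there was at 29.8 and 33.2 CPM, whereas in epithelial barcodes it was at 11.6 and 56.1 CPM. None of the 7 promoter proteins that dock CIITA was past 2-fold in either direction over all kept barcodes (median 0.20), where 6.96% of all genes were higher and 11.3% lower. In epithelial barcodes RFXANK was at 34.5 and 59.5 CPM and RFX5 at 3.60 and 6.03 CPM, and NFYA was at 13.9 and 14.3 CPM.

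Downstream of CD74, 2 of 10 endosomal enzymes were past 2-fold higher and 1 lower, beside 6.96% and 11.3% of all genes. CTSS, the protease that makes the last cut in CD74, went from 277 to 21499 UMIs (2.72 to 234.0 CPM, an 86.0-fold difference, 76.4 to 97.2), in epithelial (2.36 to 233.1 CPM) and mesenchymal barcodes (3.82 to 248.0 CPM) alike. IFI30, a lysosomal thiol reductase, went from 28.2 to 381.0 CPM. CTSV, a cathepsin that cuts CD74 in thymic epithelium, went from 43.5 to 13.1 CPM. CTSL, CTSB, CTSD and LGMN stayed within 2-fold in epithelial barcodes, at log2 ratios of -0.20, -0.10, 0.26 and 0.85. Of the 4 brakes, SOCS1 went from 15.9 to 76.8 CPM (log2 ratio 2.27), and PRDM1, a repressor of CIITA, was at 34.9 and 20.9 CPM in epithelial but 7.58 and 19.2 CPM in mesenchymal barcodes. The ubiquitin ligase MARCH1, which removes class II from the surface, was at 6.68 and 6.23 CPM in epithelial and 16.4 and 2.96 CPM in mesenchymal barcodes. CD44, the signalling partner of CD74, was 2.12-fold higher over all kept barcodes (151.7 and 321.1 CPM). It was at 55.9 and 252.6 CPM in epithelial, 537.5 and 809.6 CPM in mesenchymal and 103.4 and 37.0 CPM in enteroendocrine-like barcodes, the last on 70 and 9 UMIs. The ligand MIF was at 1419 and 1077 CPM in epithelial barcodes.

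**Figure D5:**
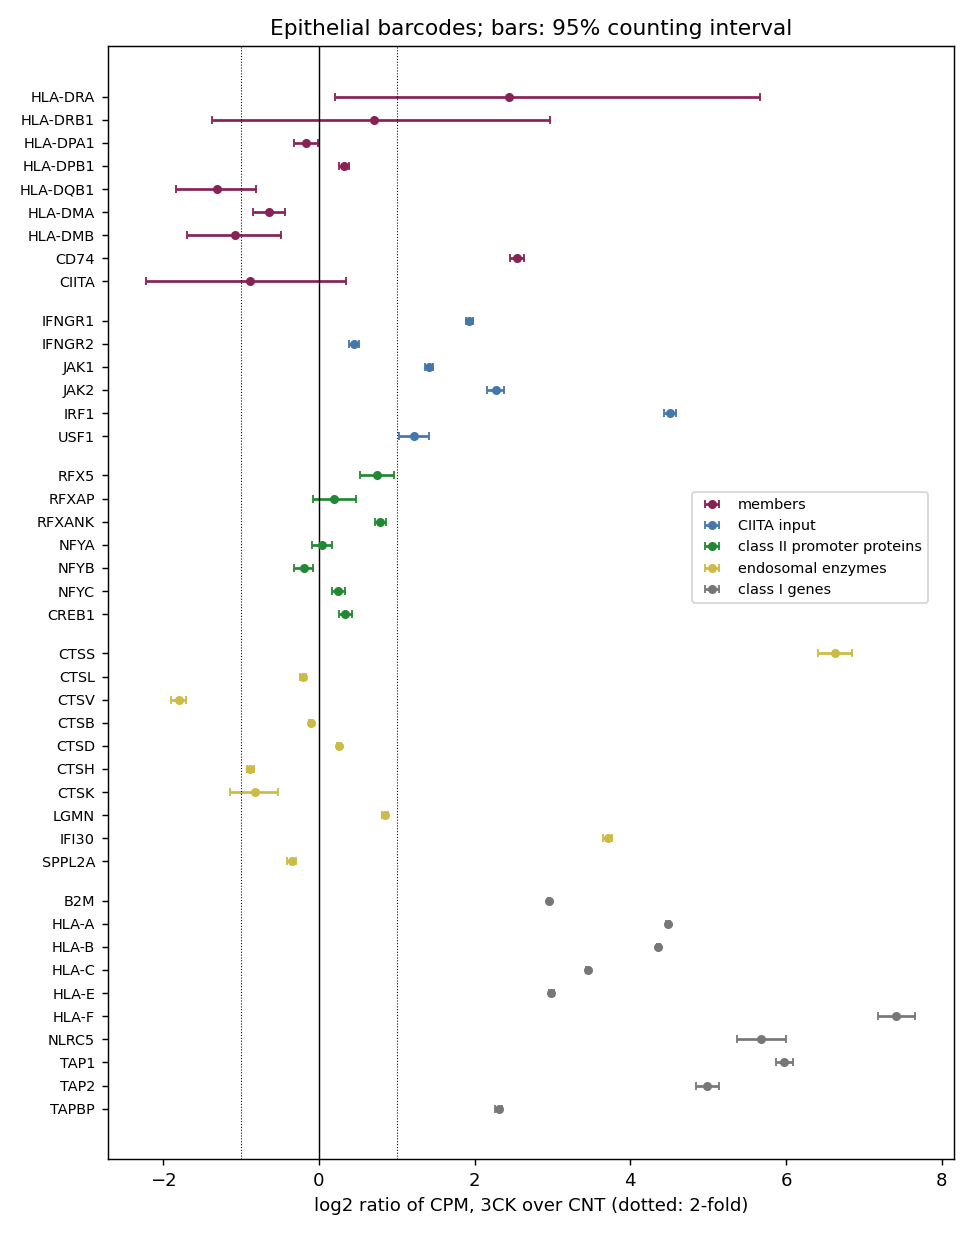
Log2 ratio of CPM, 3CK over CNT, in epithelial barcodes, for the class II genes, genes carrying the IFN-γ signal, promoter proteins, endosomal enzymes and class I genes, with 95% counting intervals (dotted lines at 2-fold). CD74 at 2.55 is the one class II gene right of the 2-fold line with a narrow interval (HLA-DRA, at 2.44, spans 0.21 to 5.67), whereas all 10 class I genes lie between 2.31 and 7.42.

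Class I genes gave a scale from the sister pathway. All 10 were past 2-fold higher in each cell group, with a median log2 ratio of 3.81 over all kept barcodes, where 6.96% of all genes were past 2-fold higher. NLRC5, the class I counterpart of CIITA, went from 2.53 to 66.5 CPM (26.3-fold, 23.2 to 29.9), with 258 and 6112 UMIs where CIITA had 25 and 20. In epithelial barcodes HLA-F went from 1.92 to 327.8 CPM and B2M from 1250 to 9698 CPM.

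Among 5 further class II chains, HLA-DOB alone reached 1 CPM. It went from 11 to 983 UMIs, or 0.108 to 10.7 CPM, while HLA-DOA, its partner, had 12 and 5 UMIs in epithelial barcodes. HLA-DOB (chromosome 6, 32812763 to 32820466, minus strand) lies 1366 bases downstream of TAP2 (32821833 to 32838739) on the same strand. TAP2, a class I peptide transporter, went from 677 to 14251 UMIs. All 327 deep 3CK barcodes with HLA-DOB also had TAP2, as did 97.0% of all deep 3CK barcodes. In CNT 4 of 8 deep barcodes with HLA-DOB had TAP2, as did 29.7% of all deep CNT barcodes. HLA-DOB UMIs came to 1.62% of those of TAP2 in CNT and 6.90% in 3CK. Whether reads past the end of TAP2 were counted to HLA-DOB was not tested.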

How the data were processed

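Single-cell RNA was measured in 1 CNT and 1 3CK library. Values are raw UMI counts as the authors deposited them, a gene-by-barcode matrix from Cell Ranger 7.1.0 (named in the file headers), on GRCh38 per the submitters' processing notes. The annotation is not given in the sources used here. Barcodes with at least 500 genes and at most 20% mitochondrial UMIs were kept (at this step 412 CNT and 52 3CK were removed for few genes, 306 and 175 for mitochondrial share), and 52 and 16 with the highest Scrublet scores (scanpy 1.11.5) were removed as doublets. UMIs were summed per library and group and scaled to CPM by all UMIs. Against a library with 0 UMIs the ratio is a bound at 3 UMIs, and genes with at most 3 in both got none. Sums have exact Poisson intervals, ratios and shares exact binomial (Clopper-Pearson) ones, and differences of shares Newcombe ones. Past 2-fold means a log2 ratio of at least 1 in size at 1 CPM or more in either library. The ratio and its interval were checked on simulated counts with known folds. The genes, lists and groups were chosen with earlier results of these data known. Named genes are the 10 class II pathway genes, pathway list members, the 5 most like CD74 and HLA-DPB1 over subgroups, and the 10 with the largest carrier ratio at 50 CPM or more. A gene of the IFN-γ list is not reported here. Alternatives covered filters, doublets, depth, scaling, group rules, thinning and minimum levels. Calculations used Python 3.11.15, numpy 2.4.6 and scipy 1.17.1.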

Additional observations from a re-analysis of the deposited data

Results flagged for a closer look

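The log2 ratio of 3CK over CNT went in opposite directions in epithelial and mesenchymal barcodes for 2 genes, and neither difference was tested. For HLA-DPA1 the mesenchymal ratio (0.90) exceeded the epithelial one (-0.17) by 1.06. For HLA-DMB it exceeded it (0.52 against -1.07) by 1.60, on 6 and 4 mesenchymal UMIs.

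Barcodes that the filter or the doublet step removed, which enter no comparison, held HLA-DPB1 at 91.8 CPM in 3CK (278 UMIs) against 16.7 CPM in CNT. In 3CK 181 of the UMIs came from 1 barcode removed for its doublet score. CD74 stood there at 91.8 CPM as well, also on 278 UMIs, against 9.76 CPM in CNT.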

How the results depend on the processing

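No paired analysis was possible because each group is 1 library. CD74 was higher in 3CK under every alternative run, with a log2 ratio of 2.45 to 2.63 over all kept barcodes. No ratio past 2-fold changed sign, bounds against 0 UMIs left aside. The HLA-DRA bound in barcodes of no group did so without 1 barcode (1.02 and -0.66). Ratios within 2-fold did so for HLA-DPA1 and CIITA over all kept barcodes, CIITA in epithelial ones, and HLA-DPA1, HLA-DPB1, HLA-DMA, HLA-DMB and CIITA in mesenchymal ones. TMM factors gave HLA-DPB1 0.48 and CD74 2.63 over all kept barcodes, CD74 2.57 in mesenchymal ones, and 2 genes past 2-fold higher there. A total without mitochondrial, ribosomal and the 50 most abundant genes gave HLA-DPB1 0.30 and CD74 2.45 over all, 0.20 and 2.43 in epithelial barcodes, and 2 genes lower over all. Equal weight per barcode gave HLA-DPB1 0.52 over all and 0.45 in epithelial barcodes, CD74 2.85 in mesenchymal ones, and 2 genes lower there. Removing 5% as doublets left 1 gene lower in epithelial barcodes.

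In percentage points of epithelial barcodes with a UMI, the difference for CD74 was 18.9 and for HLA-DPB1 2.08. It was 33.8 and 12.0 without thinning, and for CD74 29.9 at 10000 UMIs, 6.62 at 2 or more UMIs and 23.1 without MALAT1-rich barcodes. A minimum of 10 CPM left 0 genes lower over all and in epithelial barcodes. Over all kept barcodes only CD74 and HLA-DPB1 reached that minimum, and their median was 1.47. No minimum put 3 higher over all and 2 in epithelial barcodes. Among carriers of 5 or more UMIs in CNT, 63.1% for CD74 and 97.7% for HLA-DPB1 were epithelial.

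The other alternatives were chosen after seeing the data. Without MALAT1-rich barcodes HLA-DPB1 was 0.46 over all and 0.46 in epithelial barcodes. Without the 5 highest barcodes it was 0.18 and 0.092. Without barcodes with a leukocyte marker UMI, CD74 was 2.46 over all, 2.66 in epithelial and 2.19 in mesenchymal barcodes, HLA-DPB1 was 0.20 in epithelial ones, and genes lower were 0 over all and 1 in epithelial ones. The causes of these shifts were not tested.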
